A study of Mus musculus with 13 samples.

Results

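Amino acid transporters are membrane proteins of the solute carrier (Slc) families, and the members described here are the genes measured by a probe set with 1 gene symbol that begins with Slc1a, Slc3a, Slc6a, Slc7a, Slc36a, Slc38a or Slc43a, leaving out Slc7a1 and Slc7a2. The rule gave 58 of the 18818 named genes, and the probe set with the highest mean stood for a gene. They comprised 20 Slc6, 12 Slc7, 11 Slc38, 7 Slc1, 4 Slc36, 3 Slc43 genes and 1 Slc3 gene. The rule works on names, so it also took in carriers of other substrates in these families, and Slc7a6os, a gene named for its place opposite Slc7a6 that encodes no carrier. Slc3a1, Slc7a7 and Slc7a10 are not analysed here.

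RNA of epididymal white fat was measured on 13 Affymetrix arrays from male mice 6.5 weeks old, all on a high-fat diet for 4 days. Wild type mice, C57/BL6 by the growth protocol, had received α-galactosylceramide (αGalCer, 100 ng per g of body weight) into the peritoneum on days 0 and 2 (4 arrays) or the vehicle pyridine (3 arrays). CD1d knockout mice of the strain B6.129S6-Cd1d1/Cd1d2tm1spb/J had received αGalCer (3 arrays) or vehicle (3 arrays). αGalCer is a glycolipid that activates natural killer T (NKT) cells when CD1d presents it, and mice without CD1d lack these cells, so the knockout shows what αGalCer does without them. The background strain is labelled C57Bl/6J for both genotypes, which does not match the knockout strain's name, and whether the genotypes differ in more than CD1d was not tested. The deletion is present in every cell of the knockout mice, and the labels do not tie arrays to single animals, so a p-value reflects how far these arrays spread, and some of that spread may be technical.

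Cells take up amino acids through carriers that exchange one amino acid for another, that draw them in with sodium or protons, or that let them flow down their gradient. Several light chains of the Slc7 family work as pairs with the heavy chain CD98 (Slc3a2), which brings them to the surface. The Slc38 and Slc1 families carry glutamine, alanine, serine and glutamate with sodium, and Slc36 and Slc38 members also sit on lysosomes, where amino acids are sensed by the growth kinase complex mTORC1. Activated lymphocytes and macrophages are known to raise carriers for leucine, glutamine and cystine, and fat cells use amino acids to make lipid and export glutamine and alanine.

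All values are log2 expression values, and a difference of 1 is a 2-fold difference. Calls rest on an adjusted p under 0.05 from 1 limma model of all 18818 genes. Cd1d1 read 2.64 to 4.03 on the 6 knockout arrays and 9.08 to 10.86 on the 7 wild type arrays. Adipocyte markers were high on every array, with a mean of 11 genes of 10.45 to 11.18 in wild type fat after αGalCer and 12.14 to 12.36 on the other 9 arrays. A mean of 13 macrophage markers was 10.63 to 10.85 in wild type fat after αGalCer and 8.50 to 9.60 elsewhere, and a mean of 10 T cell markers was 7.40 to 7.82 against 5.54 to 6.06 elsewhere. Skeletal muscle markers averaged 8.48 in knockout αGalCer replicate 3, 8.27 and 6.78 in knockout vehicle replicates 1 and 2, and 5.07 to 5.85 on the other arrays. In whole fat, fewer cells of a type and less RNA per cell cannot be told apart.

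The comparison of αGalCer with vehicle in wild type fat asks what happens to these carriers where NKT cells are present. The largest rises were those of Slc7a11 (7.21-fold), Slc7a8 (5.14-fold), Slc38a1 (4.19-fold) and Slc7a5 (3.62-fold). The largest falls were those of Slc6a13 (8.86-fold), Slc1a1 (5.83-fold), Slc38a3 (5.03-fold) and Slc7a9 (4.82-fold). Carriers of 1 substrate went both ways. For cystine Slc7a11 rose and Slc7a9 fell, and for taurine Slc6a6 rose and Slc6a13 fell. For glutamine Slc38a1 rose and Slc38a3, Slc38a5 and Slc1a5 fell. Slc7a9, Slc38a3 and Slc38a5 were also lower after αGalCer in knockout fat (-1.80, -1.51 and -0.75, not called). In the main fit the change did not differ between genotypes at the threshold for any of them. In all, 12 of the 58 members rose and 14 fell, or 44.8%, where 41.9% of all genes were called (19.8% higher and 22% lower). The share called among the members was therefore near that of all genes. The members' median change was -0.07 against -0.02 for all genes, and their median absolute change 0.34 against 0.26. At least 2-fold, 6 members rose and 12 fell, a larger share than the 14.9% of all genes called at that size. The 12 include Slc38a3, Slc7a9, Slc6a20a, Slc6a17, Slc6a20b and Slc38a5, which were also lower after αGalCer in knockout fat, uncalled there. At an unadjusted p under 0.05 there were 31 members, against 47.9% of all genes. The 2 groups did not overlap for 26 members, against 46.7% of all genes.

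**Figure D1:**
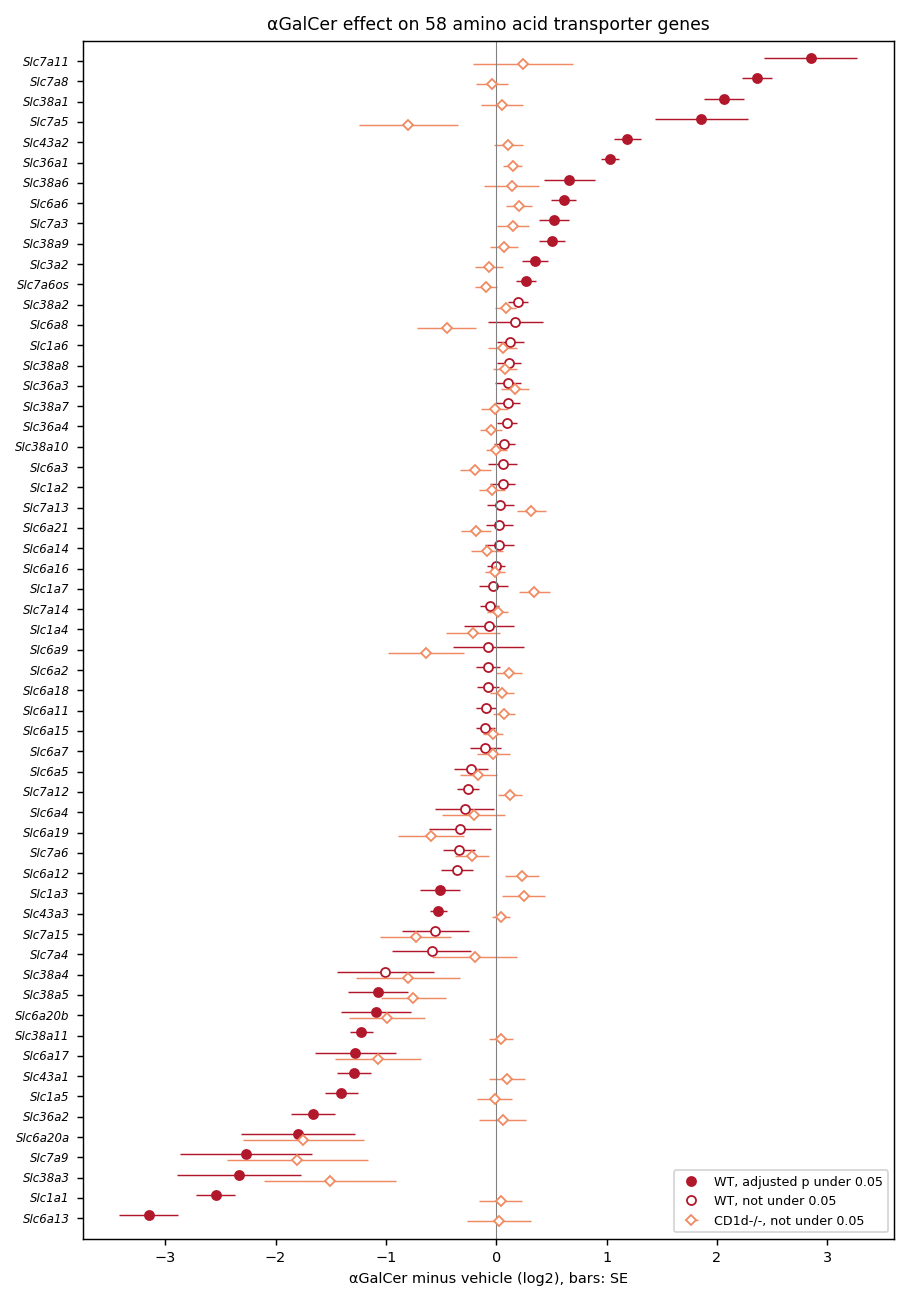
αGalCer minus vehicle on the log2 scale (x axis) for each of the 58 genes (y axis, ordered by the wild type change), with bars for the SE. Red circles show wild type fat, filled where adjusted p was under 0.05, and orange diamonds show knockout fat, where 0 of 58 were called. Slc7a11 (2.85) stands at the top and Slc6a13 (-3.15) at the bottom. The 6 genes from Slc38a3 to Slc38a5 described below have diamonds left of 0 as well, from -1.80 to -0.75.

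Among the light chains that pair with CD98, Slc7a11 encodes xCT, which takes up cystine in exchange for glutamate and so supplies cysteine for glutathione. It read 8.58, 7.58, 7.01 and 9.13 in wild type fat after αGalCer, against 4.52, 5.32 and 5.83 after vehicle. In knockout fat it read 4.88, 4.87 and 4.83 after αGalCer and 4.59, 4.40 and 4.87 after vehicle. The 4 wild type arrays after αGalCer were thus above the other 9, though they spread over more than 2 units. The rise in wild type was 2.85 ± 0.42 (SE, adjusted p = 0.000112). The change in knockout was 0.24 ± 0.45 (adjusted p = 0.907), and the effects differed by 2.61 ± 0.62 (adjusted p = 0.0064). That difference was not called without the 3 knockout arrays high in muscle genes (2.85 ± 0.90, adjusted p = 0.0534) or without the 4 vehicle arrays high in epithelium genes described below (2.77 ± 0.91, adjusted p = 0.0689). The first of these settings leaves 1 knockout vehicle array and the second 1 vehicle array per genotype, each assumed to vary like the other groups, and the size of the difference did not shrink in either.

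The upstream part of the Slc7a11 promoter is shown because it was the only one, among the members that rose and had a promoter entry, that held either of the motifs searched. The motifs were TGATGNAA, the composite element of the amino acid response factor ATF4, and TGACNNNGC, the antioxidant response element of NRF2, each on both strands with overlaps allowed. The 250 bases before the start of Slc7a11 lie at chr3:50443614-50443863 of GRCm38.p6 on the minus strand (RefSeq), and the capitals mark TGATGNAA and its reverse complement.
Slc7a11: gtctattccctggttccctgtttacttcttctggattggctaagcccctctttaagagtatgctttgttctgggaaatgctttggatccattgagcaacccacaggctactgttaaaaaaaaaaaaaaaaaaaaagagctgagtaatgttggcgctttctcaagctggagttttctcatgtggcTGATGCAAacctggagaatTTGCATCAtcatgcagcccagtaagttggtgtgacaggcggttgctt
The match on the gene's own strand runs from 66 to 59 bases before the start, and the inverted match from 47 to 40 bases before it. TGATGNAA stood in 3.45% of all 32851 promoter windows of this length and TGACNNNGC in 10.16%. Promoter windows were at hand for 42 of the 58 members, 58 windows in all, of which 2 held TGATGNAA and 8 held TGACNNNGC. For 8 of the 12 members that rose there were 9 windows, and 1 held TGATGNAA and 0 held TGACNNNGC. A match of letters is a description and says nothing about binding.

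Slc7a8 encodes LAT2, an exchanger of small and large neutral amino acids. It read 10.99, 10.78, 10.62 and 10.89 in wild type fat after αGalCer, against 8.24, 8.59 and 8.54 after vehicle. Knockout fat had 9.52, 9.17 and 9.03 after αGalCer and 9.35, 9.38 and 9.11 after vehicle. The groups did not overlap in wild type, and the change of 2.36 ± 0.13 had the smallest adjusted p of the members (7.47e-08). In knockout the change was -0.04 ± 0.14 (adjusted p = 0.957), and the effects differed by 2.40 ± 0.19 (adjusted p = 6.67e-06).

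Vehicle-treated knockout fat lay above vehicle-treated wild type fat for Slc7a8 on every array, by 0.82 ± 0.14. This missed the threshold (adjusted p = 0.0605) and was called in 5 alternatives, with adjusted p from 0.00586 to 0.0474. The rise after αGalCer in wild type thus started from a lower level than that of the knockout.

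Slc7a5 encodes LAT1, the exchanger through which activated T cells take up leucine. It read 10.65, 9.95, 8.88 and 9.97 in wild type fat after αGalCer, against 8.40, 7.54 and 8.07 after vehicle. The rise was 1.86 ± 0.42 (adjusted p = 0.00289), and the groups did not overlap. Knockout fat read 7.48, 7.35 and 7.13 after αGalCer and 9.16, 7.64 and 7.54 after vehicle. The change in knockout was -0.80 ± 0.45 (adjusted p = 0.766), so the difference of effects given below includes this uncalled fall. Knockout vehicle replicate 1, which was also high in muscle and epithelium genes, stood apart with 9.16 and lay above the lowest wild type array after αGalCer. The effects differed by 2.65 ± 0.62 (adjusted p = 0.00552), and by 1.98 ± 0.68 (adjusted p = 0.0693) without the 3 knockout arrays high in muscle genes, with knockout vehicle again resting on 1 array.

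The heavy chain Slc3a2 read 11.69, 11.42, 11.16 and 11.47 in wild type fat after αGalCer, against 11.30, 11.05 and 10.90 after vehicle. Its rise of 0.35 ± 0.12 (adjusted p = 0.0326) was smaller than those of the light chains named above, the groups overlapped, and 8 of 25 alternatives lost the call. Knockout fat was at 11.37 to 11.48 after αGalCer and 11.40 to 11.67 after vehicle, so wild type fat after αGalCer did not stand above it. Slc7a6, the light chain y+LAT2, had -0.33 ± 0.14 in wild type (adjusted p = 0.084).

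Of the system A and related carriers, Slc38a1 (SNAT1), which takes up glutamine with sodium, read 9.16, 9.38, 9.15 and 9.27 in wild type fat after αGalCer, against 6.99, 7.27 and 7.26 after vehicle. In knockout fat it read 7.71, 7.15 and 6.93 after αGalCer and 7.57, 7.05 and 7.01 after vehicle. The gap between the wild type groups was wide and the spread within them small, with a rise of 2.07 ± 0.18 (adjusted p = 1.3e-06). The effects of the 2 genotypes differed by 2.01 ± 0.26 (adjusted p = 0.000113). Its second probe set differed by 1.67 in the same direction.

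Slc38a2 (SNAT2), the system A carrier that cells raise when short of amino acids, was at 10.68 ± 0.13 after αGalCer and 10.48 ± 0.06 after vehicle in wild type (SD, n = 4 and 3). The change of 0.20 ± 0.09 was not called (adjusted p = 0.0978). Slc38a6 rose by 0.66 ± 0.23 (adjusted p = 0.0338), with 8.92, 10.08, 9.57 and 9.11 after αGalCer against 8.57, 8.92 and 8.78 after vehicle. Its groups overlapped slightly at 8.92, and 6 alternatives lost the call.

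Of 3 carriers known from lysosomes, Slc36a1 and Slc38a9 rose. Slc36a1 encodes PAT1, a proton-driven exporter of small amino acids that also sits on lysosomes. It read 9.84, 10.09, 9.91 and 9.86 in wild type fat after αGalCer, against 8.97, 8.93 and 8.79 after vehicle. Knockout fat read 8.94, 9.02 and 8.83 after αGalCer and 8.79, 8.76 and 8.79 after vehicle. The 4 arrays were far above the other 9, with a rise of 1.03 ± 0.08 (adjusted p = 5.7e-07) that differed from the knockout by 0.88 ± 0.12 (adjusted p = 0.000133).

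Slc38a9, the arginine sensor of mTORC1 on lysosomes, rose by 0.50 ± 0.12 (adjusted p = 0.00356). It read 8.54, 8.94, 9.01 and 8.79 after αGalCer and 8.13, 8.40 and 8.41 after vehicle in wild type. Its second probe set differed by 0.03 only, and 3 alternatives lost the call. Slc38a7, a lysosomal glutamine exporter, had 0.10 ± 0.11 (adjusted p = 0.53).

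Of the facilitated carriers of branched-chain and aromatic amino acids, Slc43a2 (LAT4) rose and Slc43a1 (LAT3) fell. Slc43a2 read 9.12, 9.50, 9.40 and 9.24 in wild type fat after αGalCer, against 7.92, 8.23 and 8.23 after vehicle, a rise of 1.19 ± 0.12 (adjusted p = 5.48e-06). Slc43a1 read 7.35, 7.18, 7.62 and 7.44 after αGalCer, against 8.49, 8.62 and 8.95 after vehicle, a change of -1.29 ± 0.15 (adjusted p = 1.69e-05). Neither gene's groups overlapped. In knockout both lay on the side of vehicle-treated wild type fat, with Slc43a2 at 8.25 to 8.56 after αGalCer and 8.22 to 8.51 after vehicle, and Slc43a1 at 8.45 to 8.62 and 8.22 to 8.79. The difference of effects was 1.08 ± 0.18 for Slc43a2 and -1.39 ± 0.22 for Slc43a1 (adjusted p = 0.000646 and 0.000479). Slc43a3, which carries nucleobases and not amino acids, fell by 0.52 ± 0.07 (adjusted p = 7.95e-05), at 11.03 to 11.29 after αGalCer and 11.67 to 11.77 after vehicle.

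Other members that rose were the taurine carrier Slc6a6 and the cationic amino acid carrier Slc7a3. Slc6a6 read 10.81, 10.99, 10.81 and 10.64 in wild type fat after αGalCer, against 10.18, 10.17 and 10.26 after vehicle, a rise of 0.61 ± 0.11 (adjusted p = 0.000551). Slc7a3 was dim, at 4.30, 4.05, 3.83 and 3.71 after αGalCer against 3.52, 3.37 and 3.45 after vehicle, and rose by 0.52 ± 0.13 (adjusted p = 0.00662). The groups of both genes were apart, though Slc7a3 was at 3.74 to 4.10 in knockout fat after αGalCer, within its wild type αGalCer range. Slc7a6os rose by 0.27 ± 0.09 (adjusted p = 0.0311), and this did not hold in 10 alternatives.

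Beside these rises, all 10 T cell markers, all 10 markers of cytotoxic cells, all 11 genes of cell division and 12 of 13 macrophage markers rose in wild type, with median changes of 1.87, 3.09, 2.34 and 1.82. In knockout none of these markers was called, with medians of 0.11, 0.32, 0.11 and 0.35. The part of these cells in the carriers' rise was not tested.

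**Figure D2:**
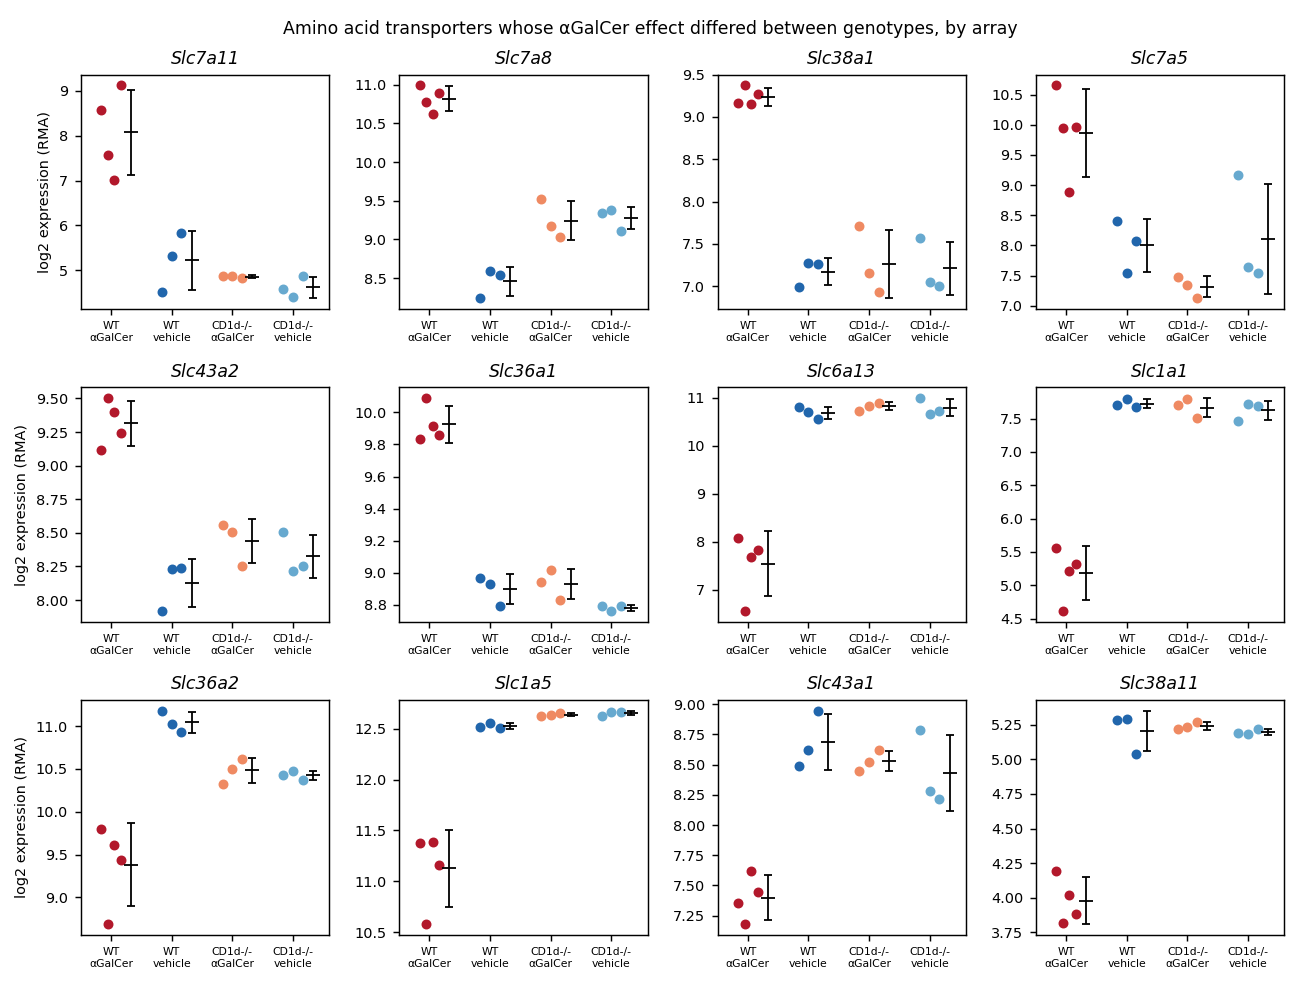
Log2 expression (y axes, each panel on its own scale, not starting at 0) of 12 genes in the 4 groups, a point per array, with black marks for the group mean and SD. The 6 panels from Slc7a11 to Slc36a1 show genes higher in wild type fat after αGalCer and the 6 from Slc6a13 to Slc38a11 genes lower there, and in each panel except Slc7a5 the 4 wild type αGalCer arrays lie apart from the other 9.

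The largest fall among the members was that of Slc6a13, which encodes GAT2, a sodium-driven carrier of GABA and taurine. It read 8.08, 6.55, 7.68 and 7.83 in wild type fat after αGalCer, against 10.80, 10.70 and 10.55 after vehicle. Knockout fat read 10.73, 10.83 and 10.89 after αGalCer and 10.99, 10.66 and 10.73 after vehicle. All 4 wild type arrays after αGalCer were thus over 2 units below the other 9. The change was -3.15 ± 0.27 in wild type (adjusted p = 1.07e-06) and 0.03 ± 0.29 in knockout, and the effects differed by -3.17 ± 0.39 (adjusted p = 7.54e-05). The related Slc6a12, the betaine and GABA carrier, had -0.36 ± 0.14 (adjusted p = 0.064).

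Slc1a1 encodes EAAT3, a carrier of glutamate and cysteine. It read 5.56, 4.62, 5.22 and 5.32 in wild type fat after αGalCer, against 7.71, 7.80 and 7.67 after vehicle. Knockout fat read 7.70, 7.79 and 7.51 after αGalCer and 7.46, 7.72 and 7.69 after vehicle. The 3 groups other than wild type after αGalCer lay together, within 0.4 units of each other. The change was -2.54 ± 0.18 (adjusted p = 2.67e-07), the difference of effects -2.58 ± 0.26 (adjusted p = 2.08e-05), and the second probe set differed by -1.56.

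Slc1a5 encodes ASCT2, a sodium-driven exchanger of alanine, serine and glutamine. It read 11.37, 10.58, 11.38 and 11.16 in wild type fat after αGalCer, against 12.52, 12.56 and 12.51 after vehicle. Knockout fat was at 12.63 to 12.66 after αGalCer and 12.63 to 12.67 after vehicle. The arrays outside wild type αGalCer were close to each other, and the change was -1.40 ± 0.15 (adjusted p = 5.92e-06), with a difference of effects of -1.39 ± 0.22 (adjusted p = 0.000366). Slc1a5 and Slc38a1, both carriers of glutamine, thus went in opposite directions in the same fat. Slc1a4 (ASCT1), which carries serine and alanine, had -0.06 ± 0.23 (adjusted p = 0.866).

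The glutamate carrier Slc1a3 (GLAST) fell by 0.51 ± 0.18 in wild type (adjusted p = 0.0396), with 9.24, 8.45, 9.23 and 9.34 after αGalCer against 9.41, 9.79 and 9.51 after vehicle. Replicate 2 alone was below 9, and 9 alternatives lost the call. Knockout fat lay above both wild type groups, at 10.20 to 10.47 after αGalCer and 10.04 to 10.23 after vehicle.

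Slc36a2 encodes PAT2, a proton-driven carrier of glycine, alanine and proline found on the surface of fat cells. It read 9.80, 8.69, 9.61 and 9.43 in wild type fat after αGalCer, against 11.18, 11.02 and 10.93 after vehicle. Knockout fat read 10.33, 10.50 and 10.62 after αGalCer and 10.43, 10.47 and 10.37 after vehicle, below vehicle-treated wild type fat and above treated wild type fat. The change was -1.66 ± 0.20 (adjusted p = 1.72e-05) and the difference of effects -1.72 ± 0.29 (adjusted p = 0.000649). Knockout minus wild type after vehicle was -0.62 ± 0.21 (adjusted p = 0.538).

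Slc38a11, a little studied member of the family, read 4.20, 3.81, 4.02 and 3.88 in wild type fat after αGalCer, against 5.28, 5.30 and 5.04 after vehicle. Knockout fat was at 5.22 to 5.27 after αGalCer and 5.18 to 5.22 after vehicle. The gene was dim but its groups lay well apart, with a change of -1.22 ± 0.10 (adjusted p = 1.08e-06) and a difference of effects of -1.27 ± 0.15 (adjusted p = 6.42e-05).

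Beside these falls, all 11 adipocyte markers and 9 of 10 endothelial markers fell in wild type, with medians of -0.97 and -1.48. In knockout none was called, and the medians were -0.0021 and 0.13. The part of these cells in the carriers' fall was not tested.

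A further 6 members fell in wild type and were also lower after αGalCer in knockout fat, where they were not called. After αGalCer, all knockout arrays lay above all wild type arrays for Slc38a3, Slc38a5 and Slc6a17. They were Slc38a3 (SNAT3) and Slc38a5 (SNAT5), which exchange glutamine for protons, Slc7a9 (b0,+AT), which takes up cystine and basic amino acids in kidney and gut, Slc6a20a and Slc6a20b, of the imino acid carrier SIT1, and Slc6a17, a carrier of synaptic vesicles. Slc38a3 read 4.87, 4.81, 5.01 and 4.94 in wild type fat after αGalCer, against 8.07, 6.42 and 7.22 after vehicle. In knockout it read 5.72, 6.06 and 5.97 after αGalCer and 9.24, 6.83 and 6.19 after vehicle. The vehicle arrays spread widely and the αGalCer arrays hardly at all. In wild type fat after αGalCer the group means of the 6 genes ran from 3.93 (Slc7a9) to 4.91 (Slc38a3). Values below 5 may be background, where RMA compresses them. The small spread there, the size of the falls and the differences between genotypes are limited by this.

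Slc7a9 read 4.12, 3.97, 3.82 and 3.82 in wild type fat after αGalCer and 7.03, 5.08 and 6.49 after vehicle. In knockout it read 4.23, 4.01 and 4.14 after αGalCer and 7.72, 5.60 and 4.46 after vehicle. Slc6a20a read 4.23, 4.39, 4.26 and 4.62 in wild type fat after αGalCer and 6.87, 5.32 and 6.33 after vehicle. The order of the vehicle arrays was the same for these 3 genes, with replicate 1 highest in both genotypes, replicate 2 lowest in wild type and replicate 3 lowest in knockout.

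Slc6a20a in knockout read 4.23, 4.71 and 4.38 after αGalCer and 7.81, 5.69 and 5.07 after vehicle. Slc6a17 read 4.76, 4.68, 4.84 and 4.81 in wild type fat after αGalCer and 6.60, 5.48 and 6.06 after vehicle. It read 5.20, 5.11 and 5.04 in knockout fat after αGalCer and 7.37, 5.53 and 5.67 after vehicle, again highest in replicate 1. The changes in wild type were -2.27 ± 0.60 for Slc7a9 (adjusted p = 0.00784), -1.80 ± 0.52 for Slc6a20a (adjusted p = 0.0129) and -1.28 ± 0.37 for Slc6a17 (adjusted p = 0.0128). Slc6a20b and Slc38a5 fell by 1.09 ± 0.32 and 1.07 ± 0.27 in wild type. Slc6a20a and Slc6a20b are close copies of each other, so which of them a probe set measured is uncertain.

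The wild type changes of these 6 genes ran from -2.33 ± 0.56 (Slc38a3) to -1.07 ± 0.27 (Slc38a5), with adjusted p from 0.00438 to 0.0146. Their knockout changes ran from -1.80 ± 0.64 (Slc7a9) to -0.75 ± 0.29 (Slc38a5), each with an unadjusted p under 0.05 and adjusted p = 0.72. The differences of effects ran from -0.82 ± 0.82 to -0.05 ± 0.76, with adjusted p from 0.544 to 0.975, so none was called. For Slc38a3 it was called without knockout vehicle replicate 1 (-1.73, adjusted p = 0.0129) and with array weights (-1.22, adjusted p = 0.043). It was also called without the 3 knockout arrays high in muscle genes (-2.03, adjusted p = 0.0363), where knockout vehicle rested on 1 array.

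Like these 6 genes, the mean of markers of ductal and ciliated epithelium was higher after vehicle than after αGalCer in both genotypes. The mean of 10 such markers was 5.80, 5.88, 5.64 and 5.93 in wild type fat after αGalCer and 7.44, 6.37 and 7.53 after vehicle. In knockout it was 5.69, 5.71 and 5.57 after αGalCer and 8.33, 6.79 and 5.92 after vehicle. Of these 10 markers 7 fell in wild type and 0 were called in knockout, with medians of -1.12 and -1.35. Krt18 (-1.06) and Krt19 (-0.32) were not called in wild type. Cdh1 went the other way there, uncalled (0.82 ± 0.63, adjusted p = 0.345). The 7 became 2 without wild type vehicle replicate 1, 3 without its replicate 3, and 4 without wild type αGalCer replicate 1 or 3. The part of these cells in the falls was not tested.

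Without the 4 vehicle arrays above 6.5 on this mean, the wild type changes were smaller. They were -1.51 for Slc38a3, -1.15 for Slc7a9, -0.95 for Slc6a20a, -0.71 for Slc6a17, -0.61 for Slc6a20b and -0.56 for Slc38a5. Each vehicle group then rested on 1 array, assumed to vary like the other groups. The wild type one, replicate 2, was at 6.37 on the epithelium mean, above every αGalCer array, and the knockout one, replicate 3, at 5.92. The setting thus did not remove the gap in epithelium markers. The differences of effects in it were -1.24 for Slc38a3 and -0.81 for Slc7a9, both larger in size than in the main fit (-0.82 and -0.47). Leaving out wild type vehicle replicate 1 alone lost the calls for Slc6a17 (-1.001, adjusted p = 0.0684) and Slc6a20a (-1.45, adjusted p = 0.0663). Leaving out replicate 3 lost that for Slc6a20b (-0.89, adjusted p = 0.0732).

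**Figure D3:**
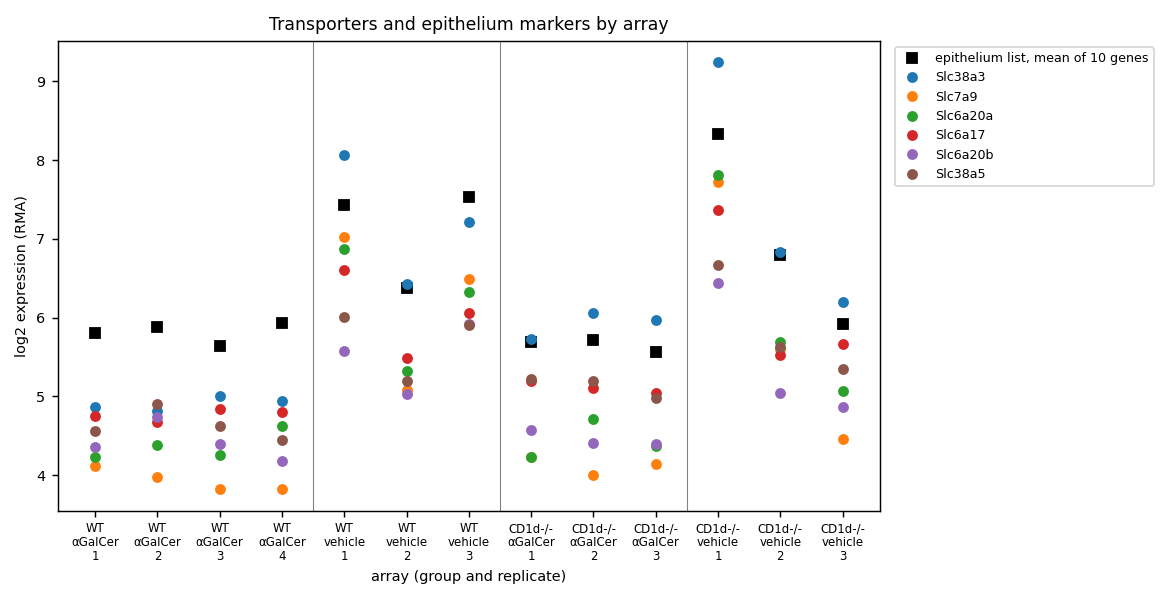
Log2 expression (y axis) of 6 transporter genes (coloured points) and the mean of 10 epithelium markers (black squares) on each of the 13 arrays (x axis, grouped, with replicate numbers). On the 6 vehicle arrays the squares run from 5.92 to 8.33 and on the 7 αGalCer arrays from 5.57 to 5.93, and the points are highest where the squares are, in knockout vehicle replicate 1.

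The remaining 32 members were not called in wild type, with changes between those of Slc38a4 and Slc38a2 (0.20). The system A carrier Slc38a4 had -1.004 ± 0.44 (adjusted p = 0.0897), Slc7a4 -0.58 ± 0.36 and Slc7a15 -0.55 ± 0.30, and their knockout values were -0.80, -0.19 and -0.73. The creatine carrier Slc6a8 and the glycine carrier Slc6a9 (GlyT1) had 0.17 ± 0.25 and -0.07 ± 0.32. Slc36a4 and Slc38a10 had 0.10 ± 0.09 and 0.07 ± 0.09, with group means between 8.61 and 9.69. Slc38a10's second, dim probe set differed by 0.45.

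The monoamine carriers Slc6a2 (noradrenaline), Slc6a3 (dopamine) and Slc6a4 (serotonin), the kidney and gut carriers Slc6a18 and Slc6a19, the glycine carrier Slc6a5 (GlyT2) and the proline carrier Slc6a7 were not called, nor were the brain and retina glutamate carriers Slc1a2, Slc1a6 and Slc1a7. The same held for Slc6a11 (GAT3, a GABA carrier), Slc6a14, Slc6a15, Slc6a16, Slc6a21, Slc7a12, Slc7a13, Slc7a14, Slc36a3 and Slc38a8. Of all 58 members 17 read below 5 on all 13 arrays, and 1 of these, Slc7a3, was called. A value that low on these arrays may be background, and no detection calls were used.

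In knockout fat the comparison of αGalCer with vehicle asks what the glycolipid does without NKT cells. In limma 0 of 58 members and 0% of all genes were called. At an unadjusted p under 0.05 there were 9 members, against 6.81% of all genes. They were the 6 genes set beside the epithelium markers above, Slc7a15, and the dim genes Slc1a7 and Slc7a13, which had 0.34 and 0.32. The groups did not overlap for 13 members, against 13.8% of all genes. With array weights 2 members were called, Slc6a6 (0.33, adjusted p = 0.0398) and Slc7a9 (-1.43, adjusted p = 0.0492).

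The difference between the αGalCer effects of the genotypes was called for 13 members, 6 with a higher and 7 with a lower effect in wild type, or 22.4%, against 28.2% of all genes (13.9% higher and 14.3% lower). At an unadjusted p under 0.05 there were 20 members, against 36.3% of all genes. The members called were Slc7a5, Slc7a11, Slc7a8, Slc38a1, Slc43a2 and Slc36a1 on the higher side. On the lower side were Slc6a13, Slc1a1, Slc36a2, Slc43a1, Slc1a5, Slc38a11 and Slc43a3. The carrier Slc1a3 was just outside (-0.76 ± 0.27, adjusted p = 0.0507), as was Slc6a12 (-0.59 ± 0.21, adjusted p = 0.053). The difference was called in 10 alternatives for Slc1a3 (adjusted p = 0.0143 to 0.0497) and in 6 for Slc6a12 (adjusted p = 0.00426 to 0.044).

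Knockout and wild type fat after vehicle differed in 0 of 58 members by limma's adjusted p, against 0.112% of all genes (0.0903% higher and 0.0213% lower). At an unadjusted p under 0.05 there were 5 members, against 6.69% of all genes, and the groups did not overlap for 8, against 11.2%. Besides Slc7a8 and Slc36a2, Slc3a2 was at 11.40 to 11.67 in knockout and 10.90 to 11.30 in wild type (0.42 ± 0.13, adjusted p = 0.462). Slc1a3 had 0.56 ± 0.19 (adjusted p = 0.56).

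After αGalCer, 18 members differed between knockout and wild type fat, 9 higher and 9 lower in knockout, or 31%, against 41.1% of all genes (21.9% higher and 19.2% lower). The groups did not overlap for 26 members, against 50.4% of all genes. This comparison shares the wild type αGalCer arrays with the first one, so its values are given beside those of that comparison and count as no second piece of evidence. Slc6a13 was 3.28 ± 0.27 higher in knockout, where the wild type effect was -3.15, and Slc1a1 2.48 ± 0.18 higher, where it was -2.54. Slc7a11 was 3.21 ± 0.42 below wild type (a difference of -3.21), Slc7a5 had -2.55 ± 0.42 and Slc38a1 -1.98 ± 0.18, where the wild type effects were 2.85, 1.86 and 2.07. Slc7a8 had -1.58 ± 0.13, less than its wild type effect of 2.36.

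For Slc1a3 the gap of 1.31 ± 0.18 (adjusted p = 6.14e-05) was larger than its wild type effect of -0.51. Slc6a12 was called here and not in the wild type comparison (0.55 ± 0.14, adjusted p = 0.00726), with group means of 5.80 in knockout and 5.24 in wild type. On the higher side in knockout were also Slc1a5 (1.51 ± 0.15), Slc38a11 (1.26 ± 0.10), Slc43a1 (1.13 ± 0.15), Slc36a2 (1.10 ± 0.20) and Slc43a3 (0.58 ± 0.07). On the lower side were Slc36a1 (-0.99 ± 0.08), Slc43a2 (-0.88 ± 0.12), Slc6a6 (-0.66 ± 0.11), Slc38a9 (-0.53 ± 0.12) and Slc7a6os (-0.28 ± 0.09), so each of these lay on the side of vehicle-treated wild type fat. Slc3a2 had -0.0034 ± 0.12 (adjusted p = 0.988).

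The other genes of amino acid handling went both ways in wild type fat, as all genes did. ATF4 is the factor that raises carriers and synthesis enzymes when amino acids run short. In its amino acid response 9 of 23 genes rose and 5 fell (19.8% and 22% of all genes). The median was 0.20, against -0.02 for all genes. Atf3, a stress-induced factor, rose by 2.66 ± 0.23 and Shmt2, a mitochondrial enzyme of serine metabolism, by 1.54 ± 0.21. The lipoprotein receptor Vldlr and the mTORC1 inhibitor Ddit4 fell by 2.13 ± 0.13 and 1.65 ± 0.11. Atf4 itself rose by 0.46 ± 0.15 (adjusted p = 0.0264), and asparagine synthetase (Asns) had 0.19 ± 0.19 (adjusted p = 0.488). Without wild type vehicle replicate 3, 5 genes of this list were called higher.

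Of 13 genes of glutamine and glutamate metabolism 2 rose and 5 fell (19.8% and 22% of all genes), with a median of -0.0031. Got1, an aspartate aminotransferase, rose by 2.01 ± 0.20 and Aldh18a1, which starts proline synthesis, by 1.56 ± 0.18. The alanine aminotransferase Gpt and the GABA transaminase Abat fell by 2.16 ± 0.14 and 1.61 ± 0.24, and glutamine synthetase (Glul) by 0.62 ± 0.08. Abat breaks down GABA, which Slc6a13 carries.

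Among 16 genes of glutathione synthesis and NRF2, 4 rose and 6 fell (19.8% and 22% of all genes), with a median of -0.18. Haem oxygenase Hmox1 rose by 2.26 ± 0.09 and the thioredoxin reductase Txnrd1 by 0.74 ± 0.17. The cysteine-forming enzymes Cbs and Cth fell by 1.24 ± 0.31 and 0.81 ± 0.22, and Gclm, of the enzyme that joins cysteine to glutamate, by 0.30 ± 0.08. Nfe2l2, which encodes NRF2, had 0.19 ± 0.10 (adjusted p = 0.154). The cystine carrier Slc7a11 and these enzymes thus did not share 1 direction. The number lower was 3 to 8 over the alternatives.

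In the list for amino acid sensing by mTORC1, 4 of 29 genes rose and 5 fell (19.8% and 22% of all genes). The median was -0.09. Fnip2, a partner of folliculin, rose by 1.21 ± 0.11 and the subunit Mlst8 by 0.34 ± 0.12. The arginine sensor Castor1 fell by 1.13 ± 0.14, Tsc2 by 0.43 ± 0.09 and the kinase Mtor by 0.42 ± 0.11. The number higher ranged from 1 to 4 and the number lower from 1 to 8 over the alternatives, and leaving out any 1 of the 7 wild type arrays left at most 2 higher.

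Carriers of other families that move amino acids or peptides rose in 7 of 19 cases and fell in 3 (19.8% and 22% of all genes). Their median was -0.0027. Slc15a3, a lysosomal carrier of histidine and small peptides, rose by 3.65 ± 0.23, more than any of the 58 members. Slc25a13, the mitochondrial exchanger of aspartate and glutamate, rose by 1.72 ± 0.21. The peptide carrier Slc15a2 fell by 1.41 ± 0.16 and the mitochondrial ornithine carrier Slc25a15 by 0.70 ± 0.24. Over the alternatives 4 to 7 of these carriers were called higher and 1 to 5 lower, with 1 lower without wild type vehicle replicate 1 and 5 without knockout vehicle replicate 1. In knockout none of the genes of these 5 lists was called, with medians from -0.19 to -0.04, where the median of all genes was 0.01.

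**Figure D4:**
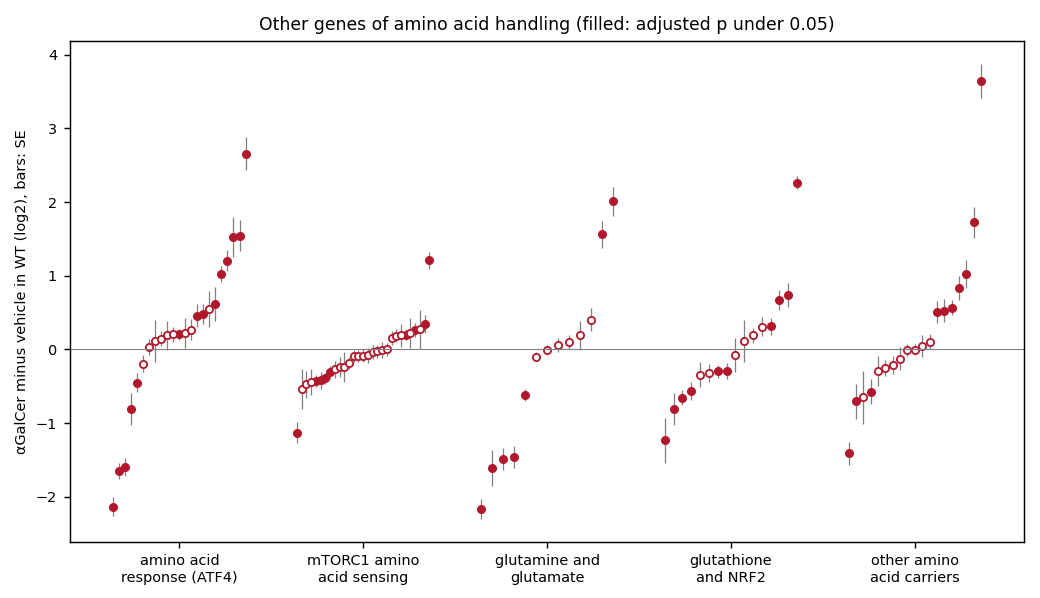
αGalCer minus vehicle in wild type fat on the log2 scale (y axis), with bars for the SE, for the measured genes of 5 lists (x axis), sorted within each list. Filled points had an adjusted p under 0.05. Each list holds called genes on both sides of 0, from Vldlr (-2.13) to Atf3 (2.66) in the ATF4 list and up to Slc15a3 (3.65) among the other carriers.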

How the data were processed

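The deposited values are log2 expression per probe set, 1 column per array, made by the authors with RMA per the submitters' processing notes. RMA corrects background, quantile normalises and summarises probes, and compresses dim probe sets. The RMA version and the genome build were not given in the sources used here. Column medians ran from 5.68 to 5.83, and no 2 arrays were identical. Precision is limited by how few arrays a group has.

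Of 35556 probe sets, 21218 had exactly 1 symbol, updated through Entrez identifiers and RefSeq (GRCm38.p6). For 18818 genes limma (3.58.1, R 4.3.3) was fitted with a mean per group on 13 arrays, 9 residual degrees of freedom and eBayes with an intensity trend. Tests were two-sided, with Benjamini-Hochberg adjustment over all genes, and ± after a change is the SE. The members, the 9 marker lists and the 5 pathway lists were chosen with earlier results of these data known, so no list was tested as a set. Array-by-array values were set for the 10 largest called rises and falls. Alternatives changed the variance model, dim genes, normalization, array weights, probe sets, groups fitted, replicate block, fold and arrays.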

Additional observations from a re-analysis of the deposited data

Results flagged for a closer look

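On the 4 wild type arrays after αGalCer, Slc1a3 read 8.45 in replicate 2 and 9.23 to 9.34 in the others, a gap that exceeded Dixon's limit for 4 values. It was 1 of 58 genes so examined, and chance flags about 1 in 20.

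The effect of αGalCer in wild type minus that in knockout passed the threshold for 13 members in a test of the difference itself. It was 2.65 for Slc7a5, 2.61 for Slc7a11, 2.40 for Slc7a8, 2.01 for Slc38a1, 1.08 for Slc43a2 and 0.88 for Slc36a1. It was -3.17 for Slc6a13, -2.58 for Slc1a1, -1.72 for Slc36a2, -1.39 for both Slc43a1 and Slc1a5, -1.27 for Slc38a11 and -0.57 for Slc43a3.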

How the results depend on the processing

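Over 25 alternatives no called change of a member reversed. Of the 26 members called in wild type, 16 kept the call in all alternatives that measured them, as did 10 of 13 for the difference of effects and 14 of 18 for knockout against wild type after αGalCer. Leaving out 1 array gave 21 (without wild type vehicle replicate 3) to 29 called members in wild type, 0 to 0 in knockout, 13 to 16 for the difference, 0 to 1 between genotypes after vehicle and 17 to 22 after αGalCer. Array weights gave 2 members in knockout, 20 for the difference and 2 between genotypes after vehicle. That last count was 1, Slc7a8, with only genes of mean at least 5, with arrays centred on their median and with a further quantile normalization. The single member without a wild type αGalCer array was Slc36a2 (without replicate 2), and without knockout αGalCer replicate 1 it was Slc7a8. The cause of these shifts was not tested. The 2 alternatives that left out arrays high in epithelium or muscle genes were chosen after seeing the data and gave 21 and 27 members in wild type. The replicate numbers, which the labels do not tie to an animal or batch, were not used in the main fit. Whether arrays of 1 number shared a batch cannot be told from the correlations. The 45 pairs with different numbers ran from -0.57 to 0.46. Same-numbered arrays of different groups had deviations correlating from -0.20 to 0.48, with 5 of 18 pairs over 0.1, and 6 of 13 arrays matched best with their own number. With the replicate block 26 members were called in wild type, 0 in knockout, 16 for the difference, 0 between genotypes after vehicle and 19 after αGalCer. Dim members are understated by RMA, and no detection call bounds them.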

Other observations

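Single arrays stood at the end of the range for several members among the 4 wild type arrays after αGalCer. Replicate 2 had the lowest values of that group for Slc6a13 (6.55), Slc1a1 (4.62), Slc1a5 (10.58) and Slc36a2 (8.69), and also the lowest mean of the 11 adipocyte markers (10.45, against 10.98 to 11.18 in the others). It was also the lowest for Slc43a1 (7.18), Slc43a3 (11.03), Slc38a11 (3.81) and Slc1a3 (8.45), and the highest for Slc36a1 (10.09), Slc38a1 (9.38), Slc43a2 (9.50), Slc6a6 (10.99) and Slc38a6 (10.08). The adipocyte list was not the only one at an end in replicate 2. Its means were also the lowest for endothelium (8.39), cytotoxic cells (8.11) and mesothelium (7.87). They were the highest for macrophages (10.85), cell division (9.69) and skeletal muscle (5.85). Replicate 3 had the lowest values for Slc7a11 (7.01), Slc7a5 (8.88) and Slc3a2 (11.16), and also the lowest mean of the 23 ATF4 response genes (8.00, against 8.18 to 8.57). Replicate 1, the highest of the group for Slc7a5 (10.65) and Slc3a2 (11.69), was also the highest on that list (8.57). Slc7a11 did not follow this order. It was highest in replicate 4 (9.13, against 8.58 in replicate 1), where the mean of that list was 8.18. These are values of single arrays of 1 group, seen after the fact and not tested.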
